A study of Mus musculus with 18 samples.

Results

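The early LPS response of normal splenic B cells was read in the control mice of a *Zbtb24* knockout study, by comparing cells after 24 h of culture with lipopolysaccharide (LPS) with the same kind of cells at 0 h. The comparison takes 3 libraries at 0 h and 3 at 24 h, and every gene above 0 FPKM in any of these 6 libraries, which was 15531 of the 16545 genes in the deposited table. FPKM is the number of fragments assigned to a gene per kilobase of transcript and corrected for sequencing depth, so levels of different genes are compared here per length. The cells were total B cells from spleen, enriched with beads and then sorted by flow cytometry, and each library came from the B cells of 1 mouse, without a statement in the labels whether libraries of the same number at different times are of the same mouse. The control mice were littermates that were *Zbtb24* +/+ on a C57BL/6 background and carried 1 allele of a Cre active in B cells. The knockout mice (B-CKO) carried the same Cre allele and were *Zbtb24* loxp/loxp, so that exon 2 of *Zbtb24* is removed from their B cells. Age, sex and the LPS dose of these cultures are not given in the sources used here. No culture without LPS was analysed here, so that the effect of LPS and that of 24 h in culture cannot be told apart, and the 0 h libraries also differ from the others by not having been cultured. In bulk libraries of this kind, fewer cells of a type and less RNA per cell cannot be told apart either.

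LPS is a cell wall component of gram-negative bacteria that B cells sense through TLR4 with its partner MD-2, and, in B cells, also with the related receptor RP105. The signal runs through the adaptors MYD88 and TRIF to NF-kappaB, MAP kinases and interferon regulatory factors, and it drives resting follicular and marginal zone B cells out of quiescence without help from T cells. The cells then grow, build ribosomes and membranes, enter the cell cycle, and in part go on to become antibody-secreting plasmablasts.

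The 24 h libraries resembled each other more than the 0 h libraries did. Across genes, Pearson's r of log2(FPKM + 1) was 0.985 to 0.993 between the 0 h libraries and 0.999 between the 24 h libraries, against 0.914 to 0.935 between the times. The median SD of a gene over the 3 libraries was 0.122 on the log2 scale at 0 h and 0.0478 at 24 h. At 0 h, replicate 1 stood apart: the median gene with a mean of at least 1 FPKM lay 0.0726 above its group mean there, against -0.0328 and -0.0383 in replicates 2 and 3. The FPKM values of a library summed to 453150 to 468659 at 0 h and 515196 to 524518 at 24 h. *Zbtb24*, the gene deleted in the B-CKO mice, was at 37 to 49.6 FPKM in the control and 10.5 to 14.3 FPKM in the B-CKO libraries at 0 h, and at 15.7 to 18.8 and 10.4 to 11.7 FPKM at 24 h. FPKM covers the whole gene, so that the deleted exon was not measured on its own. Where leaving out a library ended or made the call of a named gene, its adjusted p without that library, or the range over several, is given, and "replicate 2 at both times" means the 0 h and the 24 h library of that number. Where nothing else is said, 3 values in a row belong to replicates 1, 2 and 3, means are given ± SD over the 3 libraries of a time, and differences are 24 h minus 0 h on the log2(FPKM + 1) scale, where the change of a gene near 0 appears smaller than it was.

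A change between 0 h and 24 h was called for 57.4% of the genes tested. Of the 15531 genes tested, 4147 (26.7%) were higher and 4768 (30.7%) were lower at 24 h at an adjusted p under 0.05 in limma's moderated test, and 6616 did not pass. On simulated data with the spread of these libraries, the share of false calls was above this threshold. The counts here and below may therefore hold more false calls than the threshold states. With a difference of at least 2-fold added to the rule, 1725 genes (11.1%) were higher and 1450 (9.34%) lower, so that 54.3% of these calls were increases. That share was 46.2% at a pseudocount of 0.1 and 59.3% when the libraries were scaled by median ratios. It was 41.9% when each library was rescaled to equal sums (TPM). TPM values are also larger than these FPKM values, so that the added 1 weighs less. The effects of the equal sums and of the larger values were not separated. With this rescaling, the median difference of genes with at least 1 FPKM went from 0.017 to -0.14. Without 0 h replicate 1, 4516 genes were higher and 4901 lower. With a minimum mean of 1 FPKM, where fewer genes were tested, the larger number turned to increases, with 3882 higher and 3648 lower. With a replicate block added to that minimum, 3772 were higher and 3563 lower. All 3 libraries at 24 h lay above all 3 at 0 h for 4513 genes (29.1%) and below them for 5415 (34.9%). The median difference of all genes tested was -0.02, and single genes ranged from -8.23 to 4.55. A set of 64 genes was above 0 in every 24 h library and listed at 0 in every 0 h library, and 180 genes were above 0 in every 0 h library and listed at 0 in every 24 h library.

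**Figure D1:**
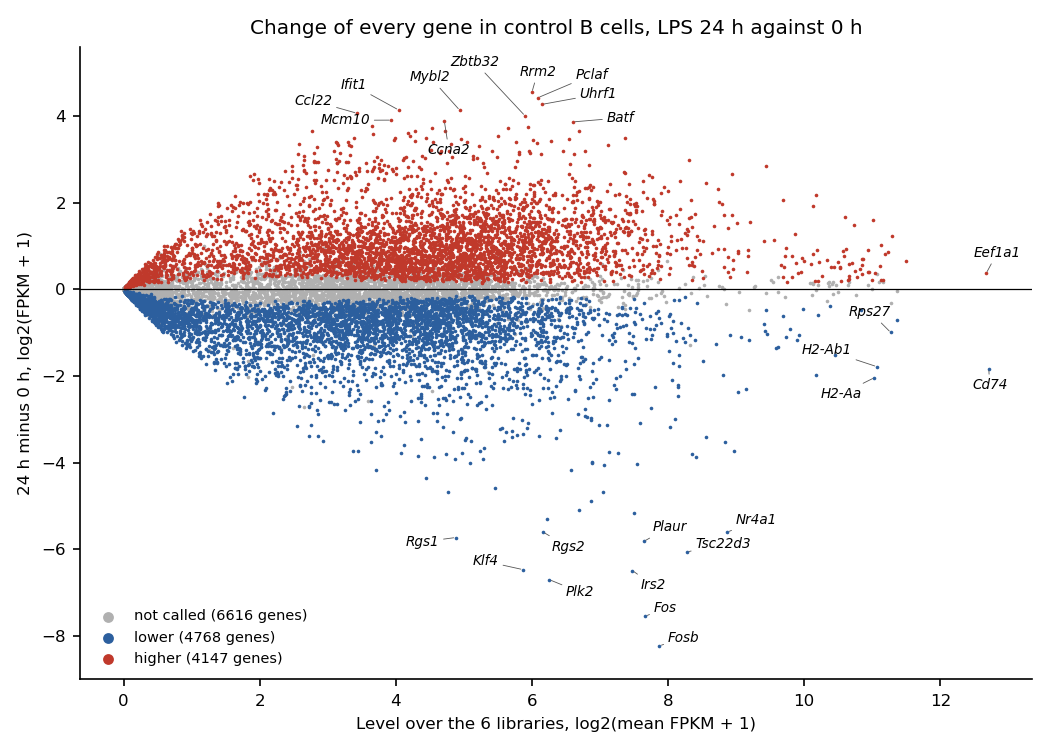
Difference of each gene tested (24 h minus 0 h, log2(FPKM + 1) scale) against its level over the 6 libraries, log2(mean FPKM + 1); genes called higher and lower at 24 h are coloured and the members with the largest changes are labelled. The cloud reaches further down, to -8.23, than up, to 4.55, and the lowest points are *Fosb* and *Fos*.

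On the log2(FPKM + 1) scale, the largest increase was that of *Rrm2*. Of the 10 largest increases on this scale, *Ccl22* (102-fold), *Ifit1* (39.5-fold) and *Mcm10* (30.4-fold) rose more by the ratio of mean FPKM. They started from low levels at 0 h. Other genes were not ranked by this ratio, and *Il6*, given below, started from a still lower level. *Rrm2* (chr12:24708254-24714146, GRCm38), the small subunit of ribonucleotide reductase, stood at 4.03, 5.3 and 3.46 FPKM at 0 h and 113, 115 and 137 FPKM at 24 h, an increase of 28.5-fold (log2 difference 4.55 ± 0.147 SE, adjusted p = 6.46e-06). The groups did not overlap, and every 24 h library was more than 20 times above the highest 0 h library. *Pclaf* (chr9:65890323-65903551), a factor bound to PCNA, rose 25.1-fold, and *Uhrf1* (chr17:56303337-56323486), which brings the maintenance methyltransferase to newly copied DNA, rose 22.3-fold. *Ifit1* (chr19:34640889-34650009), an interferon-induced protein that binds foreign RNA, went from 0.763 ± 0.264 to 30.1 ± 3.77 FPKM. *Mybl2* (chr2:163054327-163084688), a transcription factor of dividing cells, went from 2.29 ± 0.145 to 57 ± 4.13 FPKM. *Ccl22* (chr8:94745684-94751388), a chemokine that attracts T cells bearing CCR4, was near 0 at 0 h with 0.1, 0.18 and 0.29 FPKM and reached 13.9, 21.5 and 22.6 FPKM (log2 difference 4.07 ± 0.195 SE, adjusted p = 1.52e-05). The other genes among the 10 largest increases were *Zbtb32* (chr7:30589680-30602819) at 4.01, *Mcm10* (chr2:4990724-5012791) at 3.91, *Ccna2* (chr3:36564865-36573038) at 3.89 and *Batf* (chr12:85686720-85709087) at 3.87 on the log2 scale.

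On the log2(FPKM + 1) scale, the largest decreases were those of *Fosb* and *Fos*. Of the 10 largest decreases on this scale, *Rgs1* (1066-fold), *Klf4* (582-fold) and *Plk2* (422-fold) fell more than *Fos* by the ratio of mean FPKM. Their levels at 24 h were low, and other genes were not ranked by this ratio. *Fosb* (chr7:19302696-19310118), a subunit of the AP-1 transcription factor, stood at 243, 759 and 397 FPKM at 0 h and 0.39, 0.44 and 0.36 FPKM at 24 h (log2 difference -8.23 ± 0.385 SE, adjusted p = 1.41e-05). *Fos* (chr12:85473890-85477274), another AP-1 subunit, stood at 420.4, 444 and 344 FPKM at 0 h and 1.63, 0.78 and 1.11 FPKM at 24 h, a decrease of 343-fold (log2 difference -7.55 ± 0.166 SE, adjusted p = 4.97e-06). For both genes, the times were separated by far more than the spread between libraries. *Plk2* (chr13:110395044-110400844), a kinase induced by serum and stress, went from 150.5 ± 62.2 to 0.357 ± 0.101 FPKM, and *Klf4* (chr4:55527137-55532475), a transcription factor that holds B cells in quiescence, went from 114 ± 53.4 to 0.197 ± 0.0757 FPKM. *Tsc22d3* (chrX:140539528-140600522), the glucocorticoid-induced leucine zipper GILZ, fell 78.6-fold. *Nr4a1* (chr15:101253902-101274795), an orphan nuclear receptor that follows antigen receptor signalling, stood at 604, 1203 and 944 FPKM at 0 h and 16.8, 17.7 and 16.9 FPKM at 24 h (log2 difference -5.61 ± 0.238 SE, adjusted p = 1.08e-05). *Irs2* (chr8:10984681-11008929), an adaptor of the insulin and IL-4 receptors, and *Plaur* (chr7:24460937-24475970), the urokinase receptor, differed among the 0 h libraries, with 92.5, 415 and 548 FPKM and 121, 474 and 584 FPKM in replicates 1, 2 and 3. At 24 h they were at 2.08 ± 0.142 and 4.74 ± 0.291 FPKM, and with libraries left out the log2 difference of *Irs2* ranged from -7.32 without replicate 1 at both times to -5.99 without replicate 3 at both times, and that of *Plaur* from -6.53 without replicate 1 at both times to -5.39 without 0 h replicate 3. *Rgs1* (chr1:144244669-144249104) and *Rgs2* (chr1:143999338-144004149), which shorten signals of G protein-coupled receptors, completed the 10 largest decreases at -5.73 and -5.61.

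Promoter sequences were read for the genes with large changes, to set the letters of a few known motifs beside the values. The windows were RefSeq promoter windows of 300 bases, from 250 before to 50 after a gene's start, on GRCm38.p6. The table holds 1 start a gene, and for *Cdc6*, *Plaur* and *Osgin1* that start lies inside the gene's full span, downstream of its outermost start. E2F factors bind near the letters TTTGGCGC and GCGGGAAA, MYC and its partners bind the E-box CACGTG, AP-1 binds TGACTCA, and NF-kappaB binds letters of the form GGGNNTTCC. All letters were looked for on both strands, and the 2 E2F forms can overlap each other. Shown, for 3 of the motifs, are genes with large changes in the matching direction, chosen after their values were seen. Each averaged at least 1 FPKM, without overlap between the times, and 1 chromosome was left out. The letters and 26 bases on either side had to lie before the start. Genes with larger changes whose letters lie elsewhere in the window were passed over. Each sequence runs 5′ to 3′ on the strand of the gene, with the letters or their reverse complement in capitals. *Cdca7*, *Cdc6*, *Mcm6* and *Mcm5* hold E2F letters, *Chaf1a* and *Ppa1* an E-box, and *Plaur* and *Osgin1* an AP-1 element.
Cdca7, chr2:72476122-72476181, plus strand: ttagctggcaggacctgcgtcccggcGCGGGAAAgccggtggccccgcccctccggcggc
Cdc6, chr11:98907987-98908046, plus strand: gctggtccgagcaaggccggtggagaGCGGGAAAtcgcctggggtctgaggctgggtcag
Mcm6, chr1:128359782-128359841, minus strand: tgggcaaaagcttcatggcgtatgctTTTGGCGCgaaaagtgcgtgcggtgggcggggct
Mcm5, chr8:75109334-75109393, plus strand: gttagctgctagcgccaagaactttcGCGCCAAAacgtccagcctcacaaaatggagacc
Chaf1a, chr17:56040291-56040348, plus strand: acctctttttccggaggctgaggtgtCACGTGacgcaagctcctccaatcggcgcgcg
Ppa1, chr10:61648455-61648512, plus strand: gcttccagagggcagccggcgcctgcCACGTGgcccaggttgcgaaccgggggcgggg
Plaur, chr7:24462388-24462446, plus strand: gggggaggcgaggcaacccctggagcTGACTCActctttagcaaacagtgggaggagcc
Osgin1, chr8:119437024-119437082, plus strand: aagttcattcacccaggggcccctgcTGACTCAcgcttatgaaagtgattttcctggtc

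The E2F letters were present in a larger share of the promoters of genes that rose at least 2-fold (1405 windows) than in those of genes that fell at least 2-fold (1143 windows). Either E2F form was present in 5.41% of the former and 1.22% of the latter, against 2.82% of the windows of all genes tested and 1.63% of all promoters in the table. The E-box was present in 11.8% and 10.1%, against 9.38% of the genes tested, the NF-kappaB letters in 8.75% and 7.61% against 6.88%, and the AP-1 element in 3.13% and 3.85% against 3.9%. In the windows of genes averaging 1 FPKM or more, the shares were 3.46% for either E2F form, 11% for the E-box, 7.69% for the NF-kappaB letters and 3.01% for the AP-1 element, so that the genes that fell lay below this background for the E-box and the NF-kappaB letters and above it for AP-1. Among the DNA replication genes taken up below, 11 of 33 windows held an E2F form, and among the mitosis genes 1 of 29. Of the ribosome biogenesis genes, 9 of 32 windows held an E-box, and of the immediate early genes 0 of 19 held the AP-1 element. A match describes letters only and is not evidence of a bound site. The 8 genes printed above changed by 3.56 (*Cdca7*), 3.49 (*Cdc6*), 3.13 (*Mcm6*), 2.90 (*Mcm5*), 3.41 (*Chaf1a*), 3.37 (*Ppa1*), -5.82 (*Plaur*) and -3.38 (*Osgin1*) on the log2 scale.

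The members were also read as lists of genes with known roles, and their calls are to be set against 26.7% of all genes called higher, 30.7% called lower and a median difference of -0.02. Most members of most lists had a mean of at least 1 FPKM. Of all 9991 such genes, 3750 were higher and 3511 lower, with a median difference of 0.017. The lists spanned the range from the immediate early genes, whose median difference was -3.0, to the genes of mitosis, whose median was 2.82.

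Over all 6 libraries neither chain of the LPS receptor passed the test, while several adaptors did. Of the 20 genes of the complex and its adaptors, 4 were higher and 5 lower, with a median difference of -0.12. Both shares lay below those of all genes tested, 26.7% higher and 30.7% lower. *Tlr4*, the receptor, stood at 3.18, 1.36 and 0.84 FPKM at 0 h and 2.23, 2.28 and 2.37 FPKM at 24 h (log2 difference 0.33, adjusted p = 0.387), and *Ly96*, which encodes MD-2, at 4.8, 2.86 and 3.53 FPKM at 0 h and 4.83, 5.2 and 4.35 FPKM at 24 h (log2 difference 0.31, adjusted p = 0.164). The groups overlapped for both. *Cd180*, the TLR4 homologue RP105, fell from 175 ± 30.6 to 83.4 ± 2.19 FPKM (log2 difference -1.05, adjusted p = 0.000495), whereas its partner *Ly86* was at 179.9 ± 23.3 FPKM at 0 h and 194 ± 8.01 FPKM at 24 h and did not pass. *Myd88*, the adaptor shared by most Toll-like receptors, rose from 23 ± 0.323 to 39.7 ± 0.878 FPKM, and *Ticam1* and *Ticam2*, the adaptors TRIF and TRAM of the interferon branch, rose by 1.28 and 1.59 on the log2 scale, as did *Tlr7* (0.90). *Irak2*, a kinase that sustains the signal, fell from 43.7 ± 1.55 to 21.3 ± 0.658 FPKM, and *Irak3*, its inhibitor, *Traf6* and *Tlr1* fell by less. Without 0 h replicate 1 the count turned to 6 higher and 5 lower, and without replicate 1 at both times to 5 and 4. *Irak3* did not pass without 24 h replicate 1 or 2, or without replicate 1 or 3 at both times, with adjusted p from 0.0647 to 0.126. *Traf6* (adjusted p = 0.0501) and *Tlr1* (0.0878) did not pass without replicate 2 at both times. *Tlr4* was higher without 0 h replicate 1 and without replicate 1 at both times (log2 difference 0.66 to 0.67, adjusted p from 0.00676 to 0.0284). *Ly96* was higher without 0 h replicate 1 (log2 difference 0.47, adjusted p = 0.0194).

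The subunits and inhibitors of NF-kappaB did not move as a block. Of 16 genes, 5 were higher and 10 lower (median -0.36). *Nfkb1*, the precursor of p50, rose from 94.6 ± 6.29 to 151 ± 4.65 FPKM (log2 difference 0.67, adjusted p = 0.000218), as did the inhibitors and co-regulators *Nfkbia* (0.57), *Nfkbib* (0.32), *Nfkbiz* (1.0) and *Bcl3* (1.16). *Rel*, the subunit that B cells need for proliferation, stood at 49.7, 135 and 227 FPKM at 0 h and 25.1, 23.3 and 22.6 FPKM at 24 h (log2 difference -2.24, adjusted p = 0.01). All 24 h libraries lay below all 0 h libraries, but the 0 h libraries differed more than 4-fold among themselves, and the log2 difference of *Rel* was -2.88 without replicate 1 at both times and -1.72 without replicate 3 at both times. *Nfkb2* (-0.54) and *Nfkbie* (-0.52) fell. Without replicate 2 at both times the counts dropped to 2 higher and 5 lower, and without replicate 3 at both times to 5 and 6. *Nfkbia* (adjusted p = 0.0647), *Nfkbiz* (0.118), *Bcl3* (0.0644), *Rel* (0.12) and *Nfkb2* (0.0624) did not pass without replicate 2 at both times. *Rel* (adjusted p = 0.0624) did not pass without replicate 3 at both times. *Nfkb2* (adjusted p = 0.0521) did not pass without replicate 1 at both times. *Nfkbib* (adjusted p = 0.0601) did not pass after rescaling to equal sums.

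The immediate early genes, which encode AP-1 subunits, EGR and NR4A transcription factors and RNA-decay and phosphatase brakes, were high at 0 h and low at 24 h. Of 23 genes, 20 were lower and 1 higher (median -3.0). *Jun* stood at 260.1, 285 and 208 FPKM at 0 h and 15, 13.3 and 13.8 FPKM at 24 h (log2 difference -4.06 ± 0.122 SE, adjusted p = 5.88e-06). *Junb*, with 940.1, 1165 and 688 FPKM at 0 h, fell 13.8-fold, and *Zfp36*, which destabilises AU-rich mRNAs, fell 15.5-fold from 640.0 ± 186 FPKM. None of these libraries overlapped between the times. *Dusp1*, a phosphatase of MAP kinases, went from 144 ± 38.6 to 2.59 ± 0.358 FPKM, and *Btg2*, an antiproliferative gene, went from 166 ± 39.1 to 31.2 ± 2.14 FPKM. *Egr1* varied widely at 0 h, with 412, 154 and 69.4 FPKM against 23.6, 18.5 and 17.1 FPKM at 24 h (log2 difference -3.0, adjusted p = 0.00575), and its log2 difference lay between -3.62 without 0 h replicate 3 and -2.34 without 0 h replicate 1. *Egr3* fell from 106 ± 18.7 to 9.37 ± 0.628 FPKM and *Nr4a2* from 13.2 ± 7.17 to 0.113 ± 0.0321 FPKM. The 1 gene that rose was *Ier3*, at levels under 1 FPKM, and *Fosl1* and *Nr4a3* did not pass, the latter with 1.28, 16.5 and 45.5 FPKM at 0 h and 1.2, 1.11 and 0.85 FPKM at 24 h. The median SD over the 0 h libraries was 0.418 on the log2 scale for this list, against 0.0862 at 24 h and 0.169 at 0 h for genes of at least 1 FPKM. The count of decreases was 15 without replicate 2 at both times and 21 without 0 h replicate 1. *Egr1* (adjusted p = 0.0821) did not pass without replicate 2 at both times. *Ier3* (adjusted p = 0.118) did not pass without replicate 3 at both times. *Fosl1* was lower without 24 h replicate 2 and without replicate 2 at both times (log2 difference -0.25 to -0.21, adjusted p from 0.00661 to 0.0177). *Nr4a3* was lower without 0 h replicate 1 and without replicate 1 at both times (log2 difference -3.85 to -3.80, adjusted p from 0.00098 to 0.00791) and also under several of the other processing alternatives (log2 difference -2.59, adjusted p from 0.0243 to 0.043). *Ier3* (adjusted p = 0.0907) did not pass with library weights.

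Most brakes of receptor and MAP kinase signalling fell too. Of 20 RGS, DUSP, Sprouty and Spred genes, 14 were lower and 1, *Spred1*, higher (median -1.42). *Rgs1*, which limits the response to chemokines, stood at 39.2, 75.9 and 55.6 FPKM at 0 h and 0, 0.08 and 0.08 FPKM at 24 h. *Dusp5* and *Dusp6*, nuclear and cytosolic phosphatases of ERK, fell from 63.5 ± 29.6 to 2.63 ± 0.195 FPKM and from 36.4 ± 4.58 to 4.85 ± 0.269 FPKM. *Dusp2*, an immediate early phosphatase, had 543, 220.2 and 148 FPKM at 0 h and 48.2, 47.4 and 49.2 FPKM at 24 h. The 0 h level of *Dusp2* was thus highest in replicate 1, where that of *Dusp5* (29.8, 85.2 and 75.6 FPKM) was lowest. *Spred1* (adjusted p = 0.0552) did not pass without replicate 1 at both times. *Dusp2* (adjusted p = 0.06) did not pass without replicate 2 at both times.

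Most receptors that place B cells in the spleen and let them leave it fell. Of 16 homing and egress genes, 14 were lower and 1 higher (median -2.35). *Cxcr4*, the receptor for CXCL12, stood at 178, 372 and 500.3 FPKM at 0 h and 7.81, 7.71 and 8.64 FPKM at 24 h (log2 difference -5.16 ± 0.36 SE, adjusted p = 5.92e-05). *S1pr1*, which lets lymphocytes exit along sphingosine 1-phosphate, stood at 148, 173 and 216 FPKM at 0 h and 8.57, 8.59 and 9.6 FPKM at 24 h, a 20.1-fold decrease (log2 difference -4.17 ± 0.14 SE, adjusted p = 6.51e-06). *Klf2*, the transcription factor that maintains *S1pr1* and quiescence, stood at 787, 941 and 788 FPKM at 0 h and 77.5, 67.9 and 71.6 FPKM at 24 h (log2 difference -3.51 ± 0.0923 SE, adjusted p = 5.17e-06). For each of these genes the times were separated by a wide gap. *Ccr7*, which draws B cells towards the T cell zone, fell from 209, 598 and 669 FPKM to 54.5 ± 4.5 FPKM, and *Gpr183*, the oxysterol receptor EBI2, fell 6.06-fold. *Cxcr5*, the receptor for the follicle chemokine CXCL13, was at 132 ± 37.4 FPKM at 0 h and 139 ± 5.75 FPKM at 24 h (log2 difference 0.11, adjusted p = 0.645), with overlapping groups. *Itgal*, the alpha chain of LFA-1, was the 1 gene that rose, from 63.9 ± 1.95 to 85.1 ± 3.46 FPKM. *Cxcr5* was higher without 0 h replicate 2 and without replicate 2 at both times (log2 difference 0.33, adjusted p from 0.00757 to 0.0418).

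The antigen-presentation genes of class II all moved down or did not pass. Of 16 genes, 14 were lower and 0 higher (median -1.94). *Cd74*, the invariant chain and the gene with the highest level at 0 h, stood at 9967, 11442 and 9967 FPKM at 0 h and 3148, 2774 and 2913 FPKM at 24 h, a 3.55-fold decrease (log2 difference -1.83 ± 0.108 SE, adjusted p = 3.13e-05). *H2-Aa*, *H2-Ab1* and *H2-Eb1*, the chains of I-A and I-E, fell 4.1-, 3.44- and 3.97-fold. *Ciita*, the master regulator of class II genes, went from 102 ± 11.2 to 26.4 ± 1.99 FPKM (log2 difference -1.90 ± 0.0979 SE, adjusted p = 1.95e-05). *H2-Ob*, which tempers peptide loading, fell most, 9.24-fold, and *Marchf1*, a ligase that removes class II from the surface, fell 5.74-fold. At 48 h of LPS, *Cd74* was at 3465 ± 163 FPKM and *Ciita* at 33.4 ± 1.13 FPKM.

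Genes of the class I pathway went both ways. Of 15 genes, 8 were higher and 4 lower (median 0.53). *H2-K1* and *H2-D1*, the heavy chains, fell 2.07- and 2.27-fold, the former from 1291, 1404 and 1209 FPKM to 635, 629.7 and 625 FPKM. *Psmb9*, a catalytic subunit of the immunoproteasome, rose from 89.5 ± 20.6 to 152 ± 5.71 FPKM. *Tap1*, the peptide transporter, was at 107 ± 9.2 FPKM at 0 h and 113 ± 4.25 FPKM at 24 h with overlapping groups. *B2m*, the light chain, fell by less, from 1508 ± 219 to 1154 ± 17.3 FPKM (log2 difference -0.38, adjusted p = 0.0268). The list held 5 higher and 2 lower without replicate 2 at both times. *B2m* did not pass without 24 h replicate 1, 2 or 3, or without replicate 1, 2 or 3 at both times, with adjusted p from 0.0565 to 0.1. *Psmb9* (adjusted p = 0.0813) did not pass without replicate 2 at both times. *B2m* (adjusted p = 0.119) did not pass with median-ratio scaling.

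Most B cell markers and genes of B cell receptor signalling were lower as well. Of 18 B cell markers, 14 were lower and 0 higher (median -1.08). *Cd79a*, the signalling chain of the receptor, stood at 2234, 2195 and 1790.2 FPKM at 0 h and 746, 713 and 721 FPKM at 24 h (log2 difference -1.50 ± 0.101 SE, adjusted p = 5.16e-05). *Ms4a1*, which encodes CD20, was at 539 ± 88.5 FPKM at 0 h and 517 ± 32.7 FPKM at 24 h and did not pass over all 6 libraries, nor did *Cd79b* (-0.48), *Ly6d* and *Pou2af1* (-0.21). Of 20 signalling genes downstream of the receptor, 14 were lower and 0 higher (median -0.61). *Nfatc1*, a calcium-controlled transcription factor, fell 3.07-fold, and the kinases *Lyn*, *Syk* and *Btk* fell 1.69-, 1.47- and 1.35-fold. *Plcg2*, the phospholipase they activate, was at 116 ± 6.86 FPKM at 0 h and 104 ± 2.95 FPKM at 24 h (log2 difference -0.16, adjusted p = 0.0555). *Btk* (adjusted p = 0.0811) did not pass without replicate 2 at both times. *Cd79b* was lower without 0 h replicate 3 and without replicate 3 at both times (log2 difference -0.74 to -0.73, adjusted p from 0.00651 to 0.0312) and also after rescaling to equal sums and with a replicate block and a minimum mean of 1 FPKM (log2 difference -0.65 to -0.48, adjusted p from 0.0358 to 0.0426). *Pou2af1* was lower without 0 h replicate 3 and without replicate 3 at both times (log2 difference -0.41 to -0.37, adjusted p from 0.0159 to 0.0367). *Plcg2* was lower without 0 h replicate 3 (log2 difference -0.19, adjusted p = 0.033) and also after rescaling to equal sums and in the fit of all 18 libraries (log2 difference -0.33 to -0.16, adjusted p from 0.00313 to 0.036).

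Most inhibitory receptors fell. Of 15 genes, 12 were lower and 2 higher (median -1.06). *Siglecg* and *Cd22*, sialic-acid receptors that dampen the B cell receptor, fell 4.05- and 2.09-fold, *Pirb* fell 3.75-fold and *Btla* 3.15-fold. *Fcgr2b*, the inhibitory Fc receptor, instead rose from 90.5, 79.8 and 69.4 FPKM to 210.2, 186 and 209 FPKM (log2 difference 1.33 ± 0.107 SE, adjusted p = 0.000104), and *Fcrl5* rose from 22.3, 22.6 and 18.1 FPKM to 57.5, 53.7 and 58.9 FPKM. Of 12 markers of follicular and marginal zone B cells, 9 were lower and 2 higher (median -1.17). *Fcer2a*, which encodes CD23 of follicular cells, fell 4.31-fold, and *Cr2* and *Cd1d1*, which mark marginal zone cells, fell 4.12- and 9.12-fold. *Cd24a* and *Mzb1* rose 2.18- and 1.77-fold.

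Surface molecules of activation and costimulation went both ways. Of 20 genes, 5 were higher and 5 lower (median -0.071). *Cd69*, an early activation antigen that retains cells in lymphoid tissue, stood at 174, 315 and 195 FPKM at 0 h and 25.9, 24 and 22.5 FPKM at 24 h (log2 difference -3.14 ± 0.219 SE, adjusted p = 5.92e-05). *Cd274* and *Pdcd1lg2*, the ligands of PD-1, fell from 89.7 ± 62.5 to 6.88 ± 0.589 FPKM and from 7.28 ± 1.98 to 1.64 ± 0.102 FPKM, and *Icosl*, the ligand of ICOS, fell from 131 ± 40.4 to 23.9 ± 2.26 FPKM. *Lamp1* was the remaining decrease. *Il2ra*, the alpha chain of the IL-2 receptor, rose 2.9-fold, *Tfrc*, the transferrin receptor, rose 2.34-fold, and *Cd80*, *Cd44* and *Cd52* also rose (0.56, 0.78 and 0.66). *Cd86* was at 10.5, 15.3 and 36.2 FPKM at 0 h and 13.7, 13.4 and 12.1 FPKM at 24 h, with overlapping groups. *Cd83* stood at 172, 682 and 563 FPKM at 0 h and 175, 158 and 163 FPKM at 24 h (log2 difference -1.28, adjusted p = 0.0694), so that 0 h replicate 1 lay among the 24 h libraries. *Icam1* did not pass over all libraries (log2 difference 0.78, adjusted p = 0.0648). Without 0 h replicate 1 the list held 7 higher and 8 lower, without replicate 1 at both times 4 and 8, without replicate 2 at both times 2 and 4, and after rescaling to equal sums 4 and 7. It held 8 higher and 6 lower with a replicate block, 7 and 5 with median-ratio scaling, 7 and 7 with library weights, and 8 and 7 with a minimum mean of 1 FPKM or in the fit of all 18 libraries, so that neither direction prevailed across the alternatives. *Cd52* did not pass without 0 h replicate 2, or without 24 h replicate 1, 2 or 3, or without replicate 2 or 3 at both times, with adjusted p from 0.0648 to 0.188. *Lamp1* (adjusted p = 0.0777), *Cd80* (0.0706) and *Cd44* (0.128) did not pass without replicate 2 at both times. *Cd80* (adjusted p = 0.0563) and *Cd44* (0.0871) did not pass without replicate 1 at both times. *Cd83* was lower without 0 h replicate 1 and without replicate 1 at both times (log2 difference -1.94 to -1.90, adjusted p from 9.02e-05 to 0.00155) and also under several of the other processing alternatives (log2 difference -1.45 to -1.28, adjusted p from 0.0187 to 0.0427). *Icam1* was higher without 0 h replicate 1 and without 0 h replicate 3 (log2 difference 0.44 to 1.05, adjusted p from 0.013 to 0.0436) and also under several of the other processing alternatives (log2 difference 0.78 to 0.84, adjusted p from 0.0118 to 0.049). *Cd52* (adjusted p = 0.079) did not pass after rescaling to equal sums.

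Of 24 cytokine receptors, 16 were lower and 1 higher (median -0.78). The 1 increase was *Tnfrsf13b*, which encodes TACI, a receptor for BAFF and APRIL, at 65.1, 49.2 and 40.5 FPKM at 0 h and 184, 181 and 186 FPKM at 24 h (log2 difference 1.84 ± 0.162 SE, adjusted p = 0.000156). *Tnfrsf13c*, the BAFF receptor, ranged widely at 0 h (218, 136 and 70.2 FPKM) around a 24 h mean of 121 ± 2.43 FPKM and did not pass. *Il4ra* fell 3.61-fold, *Ifngr1* 2.73-fold and *Il5ra* 2.82-fold. *Il10ra* fell 1.69-fold. *Il10ra* (adjusted p = 0.0521) did not pass without replicate 3 at both times.

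Most interferon-stimulated genes rose. Of 32 genes, 25 were higher and 3 lower (median 1.24). *Isg15*, a ubiquitin-like modifier, stood at 8.24, 7.79 and 6.46 FPKM at 0 h and 119.8, 118 and 104 FPKM at 24 h, a 15.2-fold increase (log2 difference 3.76 ± 0.103 SE, adjusted p = 5.17e-06). *Gbp2*, a GTPase against intracellular bacteria, stood at 8.03, 8.16 and 6.18 FPKM at 0 h and 39.6, 45.4 and 35.5 FPKM at 24 h (log2 difference 2.29 ± 0.133 SE, adjusted p = 2.96e-05). *Ifit3*, *Oas1a*, *Mx1* and *Irf7*, which encode antiviral effectors and the factor that amplifies type I interferon, rose by 1.43, 1.98, 1.29 and 1.05 on the log2 scale, and *Rsad2* by 1.33. No 24 h library of these genes overlapped a 0 h library. The 3 decreases were *Stat2*, *Ddx58* and *Gbp4*, at -0.46, -0.46 and -0.65. *Socs1*, a feedback inhibitor, did not pass, with 8.7 ± 2.73 FPKM at 0 h and 8.4 ± 0.359 FPKM at 24 h. At 48 h *Isg15* was at 45 ± 5.54 FPKM, *Ifit1* at 6.08 ± 0.355 FPKM and *Gbp2* at 45.3 ± 1.67 FPKM. Without replicate 2 at both times, 20 genes were higher and 1 lower. *Stat2* did not pass without 24 h replicate 2 or 3, or without replicate 2 or 3 at both times, with adjusted p from 0.0537 to 0.125. *Rsad2* (adjusted p = 0.0524) and *Ddx58* (0.0619) did not pass without replicate 2 at both times.

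The cytokine and chemokine genes held both increases and decreases among 22 members, 8 higher and 11 lower (median -0.35). *Il6* was at 0, 0 and 0.06 FPKM at 0 h and 4.61, 5.87 and 6.06 FPKM at 24 h (log2 difference 2.67 ± 0.108 SE, adjusted p = 9.61e-06). *Il10*, the cytokine of regulatory B cells, stood at 1.41, 2.45 and 1.98 FPKM at 0 h and 15, 12.3 and 14.2 FPKM at 24 h (log2 difference 2.34 ± 0.159 SE, adjusted p = 5.33e-05). *Tnf* and *Cxcl10*, an interferon-induced chemokine, rose to 15.5 ± 2.08 and 6.1 ± 0.32 FPKM from 4.37 ± 1.68 and 0.54 ± 0.052 FPKM. In the other direction, *Ltb*, the membrane lymphotoxin that organises follicles, had 536, 388 and 208 FPKM at 0 h and 53.8, 53.7 and 48.8 FPKM at 24 h (log2 difference -2.73 ± 0.326 SE, adjusted p = 0.000569). *Ccl3* and *Ccl4*, chemokines of recently stimulated B cells, fell from 16.5 ± 7.24 to 1.6 ± 0.181 FPKM and from 10.5 ± 3.41 to 0.727 ± 0.172 FPKM, and *Tgfb1* fell 2.08-fold. The list held 7 higher and 6 lower without replicate 2 at both times. At 48 h *Il6* was at 1.78 ± 0.0416 FPKM, *Ccl22* at 4.62 ± 1.08 FPKM and *Il10* at 14.3 ± 2.81 FPKM.

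More transcription factors of B cells and plasma cells fell than rose. Of 27 genes, 16 were lower and 4 higher (median -0.64). *Ets1*, which restrains plasma cell differentiation, stood at 235, 269 and 412 FPKM at 0 h and 55.4, 53.1 and 55.9 FPKM at 24 h (log2 difference -2.42 ± 0.2 SE, adjusted p = 0.000119). *Foxo1*, a guardian of quiescence and homing, fell 4-fold, *Mef2c* 2.4-fold, *Ebf1* 2.35-fold and *Pax5*, the commitment factor of the lineage, 1.62-fold. *Bcl6*, the factor of germinal centre cells, fell from 39 ± 14.8 to 14.2 ± 0.902 FPKM. *Irf4*, which serves both activated B cells and plasma cells, had 118, 263 and 262 FPKM at 0 h and 62.7, 66.2 and 63.4 FPKM at 24 h (log2 difference -1.64, adjusted p = 0.00449), so that its 24 h level was below the lowest 0 h library. *Batf*, an AP-1 factor needed for class switching, stood at 13.6, 10.5 and 10.5 FPKM at 0 h and 186, 184 and 174 FPKM at 24 h (log2 difference 3.87 ± 0.106 SE, adjusted p = 5.17e-06). *Prdm1*, the BLIMP1 gene that drives plasma cell fate, stood at 1.55, 2.89 and 3.79 FPKM at 0 h and 7.66, 5.35 and 8.02 FPKM at 24 h (log2 difference 1.13, adjusted p = 0.0108), and *Xbp1*, which expands the secretory apparatus, at 49.7, 43.5 and 39.7 FPKM at 0 h and 60, 50.4 and 58.4 FPKM at 24 h (log2 difference 0.34, adjusted p = 0.0328). At 48 h these 2 genes were at 16.4 ± 5.17 and 122 ± 29.4 FPKM. *Zeb2* was the other gene that rose, by 0.68. The list held 2 higher and 11 lower without replicate 2 at both times. *Xbp1* did not pass without 0 h replicate 2 or 3, or without 24 h replicate 1 or 3, or without replicate 2 or 3 at both times, with adjusted p from 0.0735 to 0.193. *Bcl6* (adjusted p = 0.0792) and *Prdm1* (0.0529) did not pass without replicate 1 at both times. *Bcl6* (adjusted p = 0.106), *Irf4* (0.0681) and *Prdm1* (0.055) did not pass without replicate 2 at both times. *Irf4* (adjusted p = 0.0574) did not pass without replicate 3 at both times. *Xbp1* (adjusted p = 0.185) did not pass after rescaling to equal sums. *Xbp1* (adjusted p = 0.0868) did not pass with library weights. *Xbp1* (adjusted p = 0.0636) did not pass in the fit of all 18 libraries.

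Plasmablast effector and class-switch genes held more increases than decreases. Of 18 genes, 7 were higher and 2 lower (median -0.16), and the share of increases was close to that of all genes with at least 1 FPKM. *Zbtb32*, a repressor of BTB zinc finger type that plasma cells express, stood at 6.91, 6.27 and 4.84 FPKM at 0 h and 105, 114 and 114 FPKM at 24 h (log2 difference 4.01 ± 0.12 SE, adjusted p = 5.88e-06). *Mzb1*, a chaperone of IgM assembly, went from 162 ± 25.3 to 287 ± 18.4 FPKM, and was at 547 ± 95.4 FPKM at 48 h. The 2 genes that fell were *Jchain*, the joining chain of IgM and IgA, with 76.1, 84.5 and 108 FPKM at 0 h and 16.5, 14.6 and 22.2 FPKM at 24 h, and *Sdc1*, which encodes CD138, with 5.53, 5.42 and 6.11 FPKM at 0 h and 1.35, 1.79 and 1.97 FPKM at 24 h. Both groups were separated without overlap. *Ell2* and *Fkbp11*, which serve immunoglobulin secretion, did not pass (-0.23 and -0.18), and at 48 h they were at 29.7 ± 6.23 and 11.9 ± 3.72 FPKM. After rescaling to equal sums, and without 0 h replicate 1 or 0 h replicate 3, the list held 7 higher and 4 lower, and without replicate 3 at both times 6 and 4. *Fkbp11* was lower without replicate 3 at both times (log2 difference -0.62, adjusted p = 0.0319).

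Most of the MYC network was lower at 24 h than at 0 h. Of 12 genes, 8 were lower and 2 higher (median -0.74). *Myc*, which drives growth and ribosome synthesis, stood at 203, 288 and 199 FPKM at 0 h and 107, 121 and 111 FPKM at 24 h (log2 difference -1.0 ± 0.15 SE, adjusted p = 0.00158), and at 48 h at 52.9 ± 3.33 FPKM. *Mxd4* and *Mxi1*, antagonists of MYC, fell 2.74- and 2.32-fold, and *Mxd1* fell from 10.7 ± 7.58 to 1.52 ± 0.0889 FPKM. *Mxd3*, an antagonist found in dividing cells, rose 4.11-fold to 4.82 ± 0.579 FPKM, and *Max*, the shared partner, rose from 53.1 ± 11.2 to 78.6 ± 2.48 FPKM. The list held 1 higher and 5 lower without replicate 2 at both times. *Max* did not pass without 0 h replicate 2, or without 24 h replicate 2 or 3, or without replicate 2 or 3 at both times, with adjusted p from 0.0512 to 0.143. *Mxd1* (adjusted p = 0.0686) did not pass without replicate 2 at both times.

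**Figure D2:**
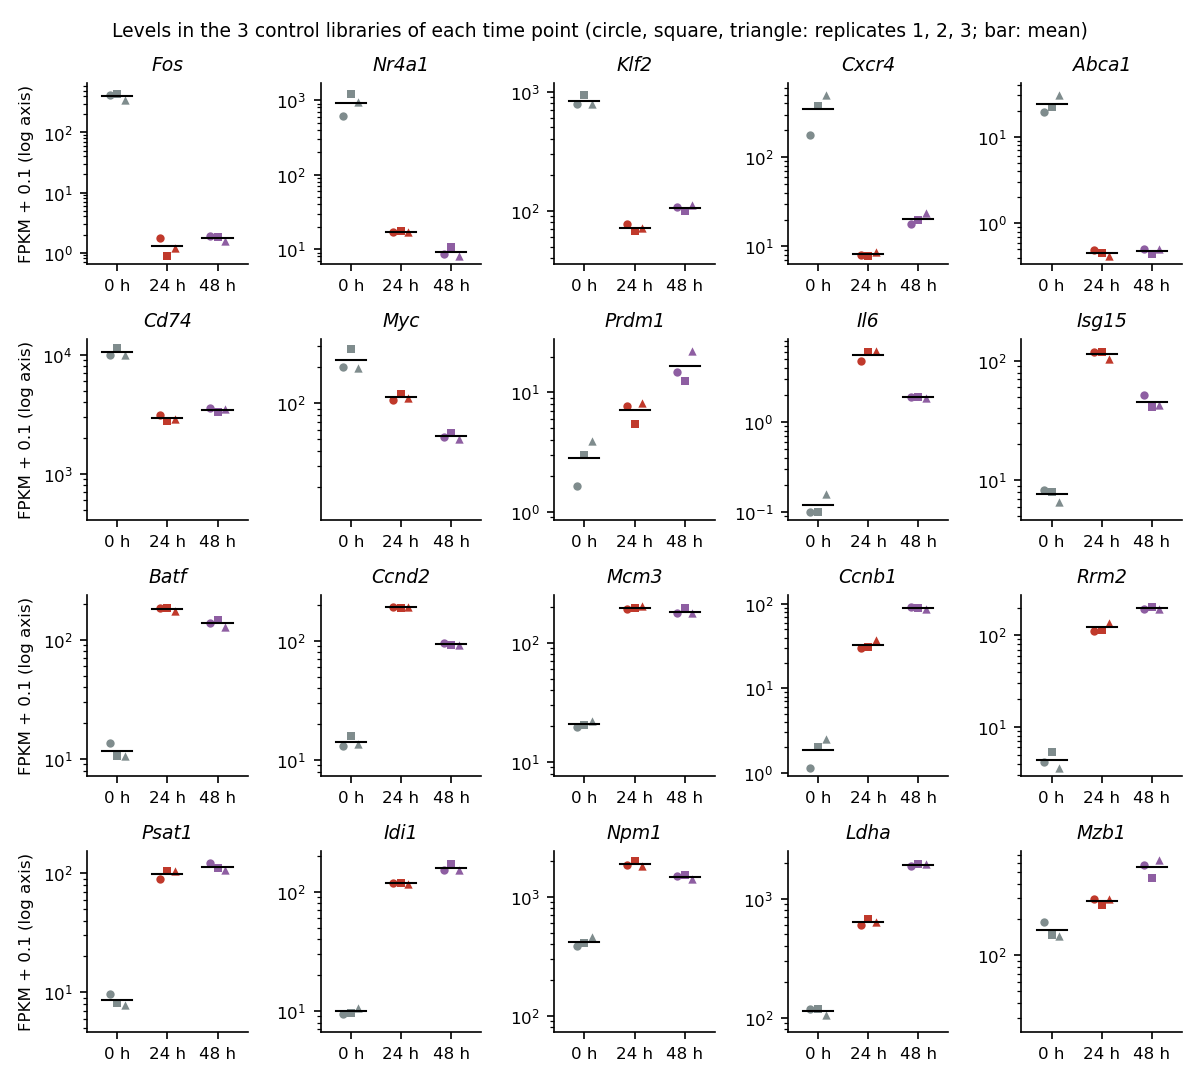
FPKM of 20 genes from the lists at 0, 24 and 48 h of LPS, on a log axis of FPKM + 0.1; circles, squares and triangles are replicates 1, 2 and 3 and bars are means. *Fos*, *Nr4a1*, *Cxcr4* and *Abca1* drop by 24 h and stay low, *Il6* and *Isg15* are highest at 24 h, and *Mzb1* is highest at 48 h; the 48 h levels are shown as a description.

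Genes that build ribosomes rose together. Of 37 genes of ribosome biogenesis and RNA polymerase I, 36 were higher and 0 lower (median 1.68), and *Taf1d* did not pass. *Npm1*, nucleophosmin, stood at 382, 406 and 459.7 FPKM at 0 h and 1847, 2007 and 1812 FPKM at 24 h, a 4.54-fold increase (log2 difference 2.18 ± 0.0893 SE, adjusted p = 9.8e-06). *Ncl*, nucleolin, and *Fbl*, the methyltransferase of box C/D particles, rose 3.9- and 3.31-fold, *Dkc1*, the pseudouridine synthase, 4.39-fold, and *Nop58* and *Rrp9* 4.13- and 4.26-fold. The lowest 24 h library was above the highest 0 h library for each of these. *Polr1b*, a subunit of RNA polymerase I, stood at 13.4, 13.1 and 14.9 FPKM at 0 h and 41.7, 43.1 and 42.7 FPKM at 24 h. At 48 h the levels of *Npm1*, *Ncl* and *Dkc1* were 1472 ± 57.8, 208 ± 15.9 and 60.8 ± 5.19 FPKM. *Taf1d* was higher without 0 h replicate 3 (log2 difference 0.24, adjusted p = 0.0381).

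The ribosomal proteins themselves changed by less. Of 43 genes, 33 were higher and 1 lower, with a median of 0.36, and after rescaling to equal sums 22 were higher and 3 lower. *Rplp0* and *Rpl3* rose 1.63- and 1.55-fold from 1412 ± 69.8 and 1132 ± 114 FPKM. *Rps2* stood at 1461, 1501 and 1506 FPKM at 0 h and 3458, 3463 and 3669.6 FPKM at 24 h and was among the 5 genes with the highest level at 24 h, as were *Rplp1*, *Ppia* and *Rpl41*. *Rps27* was lower (3455, 3385 and 3025 FPKM at 0 h and 1719, 1740.5 and 1494 FPKM at 24 h), but reads of a near-identical copy can be split between the 2 loci, so its value is uncertain, and processed pseudogenes raise the same doubt for other genes of this family. The list held 18 higher and 1 lower without replicate 2 at both times. *Rps6* rose 1.24-fold. *Rps6* (adjusted p = 0.0637) did not pass without replicate 1 at both times. *Rps6* (adjusted p = 0.0776) did not pass without replicate 2 at both times. *Rps6* (adjusted p = 0.114) did not pass after rescaling to equal sums.

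Most tRNA synthetases and translation factors rose. Of 20 cytosolic aminoacyl-tRNA synthetases, 19 were higher and 0 lower (median 1.58). *Aars*, *Iars* and *Eprs* rose 3.79-, 3.75- and 3.33-fold, with *Aars* at 22.4, 21.6 and 24.1 FPKM at 0 h and 85.3, 85.1 and 88.2 FPKM at 24 h, and *Vars* did not pass. Of 22 translation factors, 18 were higher and 0 lower (median 1.34). *Eif5a*, which is modified with hypusine, stood at 362, 312 and 282 FPKM at 0 h and 1287, 1416 and 1307 FPKM at 24 h (log2 difference 2.07 ± 0.103 SE, adjusted p = 1.73e-05). *Eif4a1* and *Eif4e*, the helicase and cap-binding protein of initiation, rose 3.25- and 3.33-fold, and *Eif4ebp1*, the inhibitor that mTORC1 phosphorylates, rose from 17.9 ± 4.31 to 41.5 ± 4.17 FPKM. *Eef1a1*, the elongation factor and the gene with the highest level at 24 h, rose from 5699 ± 433 to 7362 ± 84.9 FPKM (log2 difference 0.37, adjusted p = 0.0199). *Eef1a1* did not pass without 0 h replicate 1 or 2, or without 24 h replicate 1 or 2, or without replicate 1 or 2 at both times, with adjusted p from 0.0546 to 0.163. *Vars* was higher without 0 h replicate 2 (log2 difference 0.25, adjusted p = 0.0272) and also with median-ratio scaling and in the fit of all 18 libraries (log2 difference 0.19 to 0.26, adjusted p from 0.0191 to 0.0431). *Eef1a1* (adjusted p = 0.135) did not pass after rescaling to equal sums. *Eef1a1* (adjusted p = 0.0592) did not pass with median-ratio scaling. *Eef1a1* (adjusted p = 0.0768) did not pass with library weights.

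More of the listed mTORC1 genes fell than rose, and the kinase and its scaffold did not pass over all 6 libraries. Of 20 genes, 2 were higher and 9 lower (median -0.26). *Mtor*, the kinase, was at 10.4 ± 0.831 FPKM at 0 h and 12.3 ± 0.486 FPKM at 24 h, and *Rptor*, the scaffold, at 8.07 ± 0.656 FPKM at 0 h and 9.66 ± 0.227 FPKM at 24 h, with 24 h above 0 h in every library and adjusted p of 0.0647 and 0.0567. *Sesn1* and *Sesn3*, sestrins that report amino acid and oxidative stress, fell 5.06- and 2.64-fold, and *Tsc1*, the brake on RHEB, fell 1.81-fold. *Rragd*, a RAG GTPase, fell from 0.79, 0.84 and 2.12 FPKM to 0.04, 0.06 and 0.05 FPKM. *Akt1s1* and *Lamtor1* rose by 0.47 and 0.51. *Ddit4* was at 13.4 ± 2.43 FPKM at 0 h and 13 ± 1.8 FPKM at 24 h, without passing, and at 85.4 ± 11.6 FPKM at 48 h. Without replicate 2 at both times the list held 0 higher and 6 lower, and without 0 h replicate 3, 4 and 8. Of 15 amino acid transporters, 4 were higher and 2 lower (median 0.05), and after rescaling to equal sums 4 and 5. *Slc7a5*, the light chain of the leucine transporter, stood at 12.1, 14.9 and 22.9 FPKM at 0 h and 80.1, 84.3 and 86.4 FPKM at 24 h (log2 difference 2.31 ± 0.212 SE, adjusted p = 0.000185), while its partner *Slc3a2* and the glutamine transporter *Slc1a5* did not pass (-0.43 and -0.25). *Slc1a4* rose from 0.297 ± 0.108 to 2.58 ± 0.406 FPKM, and *Slc38a2* fell from 98.9 ± 21.8 to 41.1 ± 0.549 FPKM. *Akt1s1* (adjusted p = 0.114) and *Lamtor1* (0.0723) did not pass without replicate 2 at both times. *Mtor* was higher without 0 h replicate 3 (log2 difference 0.27, adjusted p = 0.0238) and also under several of the other processing alternatives (log2 difference 0.22 to 0.28, adjusted p from 0.0247 to 0.05). *Rptor* was higher without 0 h replicate 3 (log2 difference 0.29, adjusted p = 0.0175) and also under several of the other processing alternatives (log2 difference 0.24 to 0.30, adjusted p from 0.0186 to 0.0429). *Slc3a2* was lower without 0 h replicate 1 and without replicate 1 at both times (log2 difference -0.62 to -0.59, adjusted p from 0.00375 to 0.0221) and also under several of the other processing alternatives (log2 difference -0.60 to -0.43, adjusted p from 0.0247 to 0.05). *Slc1a5* was lower without 0 h replicate 3 and without replicate 3 at both times (log2 difference -0.43 to -0.41, adjusted p from 0.00164 to 0.00804) and also after rescaling to equal sums (log2 difference -0.42, adjusted p = 0.0242).

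Most genes of glycolysis and the pentose phosphate pathway rose, and so did those of the respiratory chain. Of 28 genes of the former, 24 were higher and 3 lower (median 1.05). *Ldha*, lactate dehydrogenase, stood at 118, 118 and 106 FPKM at 0 h and 600.3, 668 and 636 FPKM at 24 h (log2 difference 2.47 ± 0.0687 SE, adjusted p = 5.42e-06), and at 1921 ± 46 FPKM at 48 h. *Hk2*, the inducible hexokinase, stood at 2.12, 2.65 and 3.57 FPKM at 0 h and 17.8, 20.4 and 19.5 FPKM at 24 h (log2 difference 2.43 ± 0.154 SE, adjusted p = 4.05e-05). *Pkm*, *Gapdh* and *Aldoa* rose 3.93-, 3.8- and 2.68-fold, and *Slc16a1*, a lactate transporter, rose from 5.87 ± 2.46 to 33.6 ± 2.27 FPKM. The 3 decreases were the glucose transporters *Slc2a1*, from 51.2 ± 20.5 to 23.3 ± 0.98 FPKM, and *Slc2a3*, from 17.8 ± 1.03 to 6.32 ± 0.629 FPKM, and *Pdk1*, a kinase that inhibits pyruvate dehydrogenase, from 9.68 ± 0.919 to 6.82 ± 0.557 FPKM. At 48 h *Slc2a1* was at 73.6 ± 4.45 FPKM and *Pdk1* at 42.7 ± 4.37 FPKM. *Slc16a3*, the lactate exporter, had 0.18, 1.75 and 0.39 FPKM at 24 h without passing and 109.8, 124 and 129 FPKM at 48 h. Without replicate 3 at both times 24 genes were higher and 1 lower. *Slc2a1* did not pass without 0 h replicate 2, or without 24 h replicate 1 or 3, or without replicate 2 or 3 at both times, with adjusted p from 0.0512 to 0.131. *Pdk1* (adjusted p = 0.0578) did not pass without replicate 1 at both times. *Pdk1* (adjusted p = 0.0544) did not pass without replicate 3 at both times.

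All 37 nuclear subunits of the respiratory chain that were listed were higher (median 1.11). *Cycs*, cytochrome c, rose 4.09-fold, *Cyc1* 3.1-fold, *Cox5a* 2.96-fold and *Atp5b* 2.94-fold, the last with 308, 299 and 293 FPKM at 0 h and 859, 899 and 885 FPKM at 24 h. *Ndufs1* and *Sdha* rose 1.77- and 1.27-fold. Of 35 proteins of the mitochondrial ribosome, 34 were higher and 0 lower (median 1.40), and *Mrpl27* did not pass. *Mrpl12* stood at 40.1, 35.1 and 31.9 FPKM at 0 h and 184, 188 and 184 FPKM at 24 h, a 5.19-fold increase, and *Mrps28* and *Mrpl3* rose 3.93- and 2.73-fold. Genes encoded by the mitochondrial genome were not analysed here. *Mrpl27* was higher without 0 h replicate 3 and without replicate 3 at both times (log2 difference 0.43, adjusted p from 0.0106 to 0.0433) and also in the fit of all 18 libraries (log2 difference 0.29, adjusted p = 0.021).

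Nucleotide and one-carbon synthesis had one of the highest medians. Of 30 genes, 29 were higher and 0 lower (median 2.26), and *Impdh1* did not pass. *Psat1*, an enzyme of serine synthesis, stood at 9.51, 8.06 and 7.78 FPKM at 0 h and 89.4, 103 and 103 FPKM at 24 h (log2 difference 3.40 ± 0.0976 SE, adjusted p = 5.65e-06). *Mthfd2*, the mitochondrial folate enzyme, stood at 8.3, 7.68 and 6.29 FPKM at 0 h and 70.7, 78.5 and 78.5 FPKM at 24 h (log2 difference 3.20 ± 0.106 SE, adjusted p = 6.49e-06). *Ctps*, CTP synthase, *Rrm1*, the large subunit of ribonucleotide reductase, and *Shmt2* rose 6.56-, 6.37- and 5.15-fold. *Tyms*, thymidylate synthase, rose 1.55-fold, the least of the genes of this list that are named here as risen.

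Most genes listed for cholesterol and fatty acid metabolism rose, whereas the exporters *Abca1* and *Abcg1* fell. Of 32 genes of cholesterol and fatty acid metabolism, 25 were higher and 4 lower (median 1.31). *Idi1*, an isomerase of the mevalonate pathway, stood at 9.39, 9.61 and 10.5 FPKM at 0 h and 117, 118 and 116 FPKM at 24 h, an 11.9-fold increase (log2 difference 3.45 ± 0.0593 SE, adjusted p = 4.97e-06). *Sqle*, squalene epoxidase, rose 9.12-fold, and *Hmgcs1* 5.21-fold. *Fasn*, fatty acid synthase, went from 19.9 ± 1.47 to 58.3 ± 0.401 FPKM. *Abca1*, which exports cholesterol, stood at 19.1, 22.2 and 30.5 FPKM at 0 h and 0.39, 0.36 and 0.32 FPKM at 24 h (log2 difference -4.17 ± 0.175 SE, adjusted p = 1.04e-05). *Abcg1*, its partner in export, had 23.4, 33.4 and 97.7 FPKM at 0 h and 0.78, 0.57 and 0.77 FPKM at 24 h, with a log2 difference of -4.68 that lay between -5.13 without replicate 1 at both times and -4.09 without 0 h replicate 3. The other decreases were *Scd1* (-1.22) and *Elovl5* (-0.45). *Insig1* and *Scd2* did not pass (0.12 and -0.053), and *Scd2* was at 168 ± 8.32 FPKM at 48 h. *Elovl5* did not pass without 24 h replicate 1 or 2, or without replicate 1 or 2 at both times, with adjusted p from 0.0541 to 0.0847.

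Most brakes of the cell cycle fell. Of 20 CDK inhibitors and quiescence genes, 16 were lower and 3 higher (median -1.76). *Btg1*, an antiproliferative gene, stood at 511, 669 and 642 FPKM at 0 h and 46.1, 39.6 and 42 FPKM at 24 h (log2 difference -3.80 ± 0.117 SE, adjusted p = 6.17e-06). *Txnip*, which limits glucose uptake, fell 8.69-fold, *Pdcd4* 5.27-fold and *Ccng2* 3.8-fold. *Cdkn1b*, which encodes p27, fell from 73.8 ± 13.9 to 21.5 ± 1.03 FPKM. *Pik3ip1*, an inhibitor of PI3K, had 24, 62.2 and 90.4 FPKM at 0 h and 3.87, 3.26 and 4.13 FPKM at 24 h. The 3 increases were *Cdkn2c*, from 4.88 ± 0.685 to 9.62 ± 0.287 FPKM, *Cdkn2a*, from 0.12 ± 0.0781 to 1.51 ± 0.0458 FPKM, and *Slfn2*, from 45.1 ± 34.7 to 186 ± 8.06 FPKM. *Cdkn1a*, which encodes p21, was at 2.55 ± 0.292 FPKM at 0 h and 3.28 ± 0.03 FPKM at 24 h (log2 difference 0.27, adjusted p = 0.0528). *Slfn2* (adjusted p = 0.111) did not pass without replicate 2 at both times. *Cdkn1a* was higher without 0 h replicate 3 (log2 difference 0.33, adjusted p = 0.0243) and also with a minimum mean of 1 FPKM and with median-ratio scaling (log2 difference 0.27 to 0.32, adjusted p from 0.0336 to 0.0433).

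Most genes of the G1 machinery rose. Of 20 cyclins, kinases, E2F factors and pocket proteins, 16 were higher and 3 lower (median 1.43). *Ccnd2*, the main D cyclin of B cells, stood at 12.9, 15.8 and 13.4 FPKM at 0 h and 191, 188 and 191 FPKM at 24 h, a 13.5-fold increase (log2 difference 3.67 ± 0.0812 SE, adjusted p = 4.97e-06), and at 93 ± 1.91 FPKM at 48 h. *Ccnd3* rose 2.92-fold and *Cdk4* 4.53-fold. *E2f1*, *E2f8* and *Ccne1* stood at 28.7 ± 1.49, 14.6 ± 1.36 and 26.4 ± 2.3 FPKM at 24 h, against 4 ± 0.637, 0.917 ± 0.245 and 3.5 ± 1.53 FPKM at 0 h. *Cdc25a*, the phosphatase that releases CDK2, rose 5.11-fold. *Rb1* and *Rbl2*, pocket proteins of quiescent cells, and *Ccnd1*, at under 1 FPKM, were the 3 decreases (-0.41, -0.99 and -0.41). *Rb1* (adjusted p = 0.0548) did not pass without replicate 2 at both times.

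Nearly all genes of DNA replication rose. Of 41 genes, 39 were higher and 1 lower (median 2.39), and *Pold1* did not pass. *Mcm3*, a subunit of the replicative helicase, stood at 19.7, 20.1 and 22.1 FPKM at 0 h and 193, 196 and 202 FPKM at 24 h (log2 difference 3.20 ± 0.0599 SE, adjusted p = 4.97e-06). *Cdc6*, which loads the helicase, stood at 0.51, 0.83 and 0.8 FPKM at 0 h and 17.1, 18.3 and 19.1 FPKM at 24 h (log2 difference 3.49 ± 0.114 SE, adjusted p = 6.46e-06). *Mcm10* and *Cdc45*, which act in origin firing, and *Orc1*, a subunit of the complex that marks origins, rose to 27.7 ± 2.7, 39 ± 2.23 and 14.4 ± 0.942 FPKM from 0.91 ± 0.243, 2.56 ± 0.285 and 0.71 ± 0.512 FPKM. *Top2a* rose 14.9-fold and *Pcna*, the sliding clamp, 3.36-fold from a 0 h level of 154 ± 7.54 FPKM. The 1 decrease was *Cdt1*, the licensing factor, with 57.9, 102 and 126 FPKM at 0 h and 44.4, 45.7 and 46.2 FPKM at 24 h (log2 difference -0.98, adjusted p = 0.0203). *Cdt1* did not pass without 0 h replicate 2, or without 24 h replicate 1, 2 or 3, or without replicate 2 or 3 at both times, with adjusted p from 0.0577 to 0.172.

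Mitotic genes had the highest median of the lists. Of 37 genes, 34 were higher and 1 lower at 24 h (median 2.82). *Ccnb1*, the cyclin of mitotic entry, stood at 1.03, 1.91 and 2.38 FPKM at 0 h and 29.8, 30.6 and 37.2 FPKM at 24 h (log2 difference 3.62 ± 0.205 SE, adjusted p = 2.71e-05), and at 92.8, 90 and 88.4 FPKM at 48 h. *Cdk1* rose 23.9-fold, *Birc5* 16.4-fold, *Plk1* 15.2-fold and *Mki67* 8.68-fold. At 48 h *Plk1*, *Cdc20* and *Birc5* were at 107 ± 6.6, 114 ± 3.49 and 140.0 ± 8.33 FPKM, against 34.7 ± 4.59, 36.4 ± 5.49 and 47.9 ± 3.33 FPKM at 24 h. *Cdc25b* was the 1 decrease, from 49.2 ± 3.74 to 9.27 ± 0.854 FPKM. *Cenpa*, the centromeric histone, and *Pttg1*, securin, did not pass, the former with 22.6, 45.9 and 85.6 FPKM at 0 h and 20.9, 19.8 and 22.1 FPKM at 24 h. *Cenpa* was lower without 0 h replicate 1 and without replicate 1 at both times (log2 difference -1.54, adjusted p from 0.00481 to 0.0251) and also under several of the other processing alternatives (log2 difference -1.06, adjusted p from 0.016 to 0.0488). *Pttg1* was lower after rescaling to equal sums and in the fit of all 18 libraries (log2 difference -0.40 to -0.23, adjusted p from 0.0243 to 0.0438).

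Of 33 DNA repair genes, 23 were higher and 1 lower (median 0.88). *Chek1*, the replication checkpoint kinase, stood at 0.75, 1.46 and 1.71 FPKM at 0 h and 16.4, 16.2 and 16.6 FPKM at 24 h (log2 difference 2.94 ± 0.174 SE, adjusted p = 3.09e-05), and *Exo1* rose from 0.453 ± 0.0929 to 8.7 ± 0.37 FPKM. *Ung*, a uracil glycosylase, rose 4.84-fold, and *Apex1* 4.11-fold. *Mdc1* was the 1 decrease (-0.50), and *Parp1* was at 118 ± 13.7 FPKM at 0 h and 135 ± 2.27 FPKM at 24 h without passing. *Mdc1* did not pass without 0 h replicate 2, or without 24 h replicate 2 or 3, or without replicate 2 at both times, with adjusted p from 0.0531 to 0.152. *Parp1* was higher without 0 h replicate 1 (log2 difference 0.27, adjusted p = 0.0359) and also with median-ratio scaling and in the fit of all 18 libraries (log2 difference 0.20 to 0.27, adjusted p from 0.023 to 0.0378).

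The 20 genes of DNA methylation and of the ICF syndrome, to which *Zbtb24* itself belongs, were split evenly, 9 higher and 9 lower (median 0.13). *Zbtb24* stood at 49.6, 49.6 and 37 FPKM at 0 h and 18.3, 18.8 and 15.7 FPKM at 24 h in these controls (log2 difference -1.31 ± 0.135 SE, adjusted p = 0.000296). The groups did not overlap. *Hells* and *Cdca7*, which are ICF genes too, rose. *Hells*, a chromatin remodeller, stood at 4.14, 4.19 and 4.04 FPKM at 0 h and 53.6, 56.2 and 57.2 FPKM at 24 h (log2 difference 3.47 ± 0.0614 SE, adjusted p = 4.97e-06). *Cdca7*, its partner, stood at 7, 6.91 and 4.67 FPKM at 0 h and 80, 85.5 and 82.2 FPKM at 24 h (log2 difference 3.56 ± 0.142 SE, adjusted p = 9.26e-06). *Dnmt1*, the maintenance methyltransferase, rose 4.03-fold, whereas the de novo enzymes did not pass, with *Dnmt3b*, the ICF1 gene, at 3.12 ± 0.267 FPKM at 0 h and 3.79 ± 0.16 FPKM at 24 h, and *Dnmt3a* at 9.45 ± 0.369 FPKM at 0 h and 9.72 ± 0.587 FPKM at 24 h. *Ezh2*, the H3K27 methyltransferase of dividing cells, rose 9.4-fold, and its partners *Eed* and *Suz12* rose 1.84- and 1.51-fold, whereas *Ezh1*, its counterpart in resting cells, fell 2.5-fold. The demethylases *Tet1* and *Tet3* and the methyl-binding protein *Mbd2* changed by -0.28, -0.85 and -0.42 on the log2 scale. *Dnmt3b* was higher without 0 h replicate 1 (log2 difference 0.27, adjusted p = 0.0378) and also with median-ratio scaling (log2 difference 0.27, adjusted p = 0.0306).

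Most genes of protein quality control rose. All 34 proteasome genes were higher (median 1.64). *Psma5* stood at 40.1, 32 and 29.5 FPKM at 0 h and 146, 148 and 146 FPKM at 24 h, *Psmd14* rose 4.36-fold and *Psmd1* 4.01-fold. Of 26 chaperones, 21 were higher and 3 lower (median 1.65). *Hspd1*, the mitochondrial chaperonin, stood at 75.7, 75 and 61.4 FPKM at 0 h and 536, 586 and 565 FPKM at 24 h (log2 difference 2.98 ± 0.0938 SE, adjusted p = 6.23e-06), and *Hsp90aa1*, *Hsp90ab1* and *Hspa8* rose 3.3-, 2.72- and 3.06-fold. The 3 decreases were *Dnajb1* and the heat-inducible copies *Hspa1a* and *Hspa1b*, which are near-identical and share reads (-0.54, -1.96 and -1.47). Without replicate 2 at both times 20 were higher and 0 lower. *Dnajb1* did not pass without 0 h replicate 2, or without 24 h replicate 1, 2 or 3, or without replicate 1 or 2 at both times, with adjusted p from 0.0806 to 0.204. *Hspa1a* (adjusted p = 0.0591) and *Hspa1b* (0.0749) did not pass without replicate 2 at both times. *Hspa1a* (adjusted p = 0.058) and *Hspa1b* (0.0768) did not pass without replicate 3 at both times.

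Most genes of the endoplasmic reticulum rose, and 2 transcription factors of its stress response fell. Of 38 genes, 28 were higher and 7 lower (median 0.90). *Sdf2l1* and *Manf*, luminal proteins of the folding machinery, rose from 22.5 ± 8.18 to 126 ± 7.34 FPKM and from 36.6 ± 9.17 to 113 ± 1.62 FPKM. *Asns*, asparagine synthetase, rose from 0.653 ± 0.0651 to 11.9 ± 1.85 FPKM. *Ddit3*, which encodes CHOP, stood at 64.6, 96 and 122 FPKM at 0 h and 9.67, 8.47 and 7.71 FPKM at 24 h (log2 difference -3.27 ± 0.228 SE, adjusted p = 5.95e-05). *Dnajb9*, a co-chaperone of BiP, fell 7.64-fold, *Atf4* 2.28-fold and *Eif2ak3*, the sensor PERK, from 61.3 ± 35.8 to 11.8 ± 0.705 FPKM. *Ero1b*, *Ern1* and *Herpud1* were also lower. *Hspa5*, which encodes BiP, was at 432 ± 38.5 FPKM at 0 h and 528 ± 12.7 FPKM at 24 h (log2 difference 0.29, adjusted p = 0.0174). The list held 26 higher and 4 lower without replicate 2 at both times. *Hspa5* did not pass without 24 h replicate 1 or 3, or without replicate 1 or 3 at both times, with adjusted p from 0.0574 to 0.12. *Eif2ak3* (adjusted p = 0.0511), *Ern1* (0.0528) and *Herpud1* (0.0779) did not pass without replicate 2 at both times. *Hspa5* (adjusted p = 0.21) did not pass after rescaling to equal sums.

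Of 34 lysosome and autophagy genes, 24 were lower and 3 higher (median -0.69). *Laptm5*, a lysosomal protein of lymphocytes that targets antigen receptors, fell from 589 ± 74.5 to 246 ± 21.5 FPKM, *Ctss*, the protease that trims the invariant chain, from 341 ± 26.6 to 185 ± 10.4 FPKM, and *Tfeb*, the master factor of lysosome genes, from 71.6 ± 11.2 to 41 ± 1.25 FPKM. The 3 increases were *Ctsz*, *Gusb* and *Atg5* (0.49, 0.92 and 0.32). After rescaling to equal sums 1 was higher and 27 lower, and the increases dropped to 1 without 24 h replicate 2, without 24 h replicate 3 and without replicate 2 at both times. *Ctsz* did not pass without 24 h replicate 1, 2 or 3, or without replicate 1 or 2 at both times, with adjusted p from 0.0565 to 0.0775. *Atg5* did not pass without 0 h replicate 2, or without 24 h replicate 2 or 3, or without replicate 2 or 3 at both times, with adjusted p from 0.0524 to 0.163. *Ctsz* (adjusted p = 0.0616) and *Atg5* (0.136) did not pass after rescaling to equal sums. *Atg5* (adjusted p = 0.0589) did not pass with a replicate block.

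Heme, iron and redox genes held more increases than decreases. Of 24 heme and iron genes, 10 were higher and 5 lower (median 0.22), and after rescaling to equal sums 9 and 8. The share of increases before rescaling was close to that of all genes with at least 1 FPKM. *Alas1*, the first enzyme of heme synthesis, stood at 8.61, 5.98 and 5.16 FPKM at 0 h and 15.9, 16.1 and 16.2 FPKM at 24 h (log2 difference 1.20 ± 0.167 SE, adjusted p = 0.00114). *Alad* and *Cpox*, later enzymes, rose 1.99- and 2.99-fold, and *Fech*, the last, was at 7.33 ± 0.393 FPKM at 0 h and 7.72 ± 0.581 FPKM at 24 h without passing. The decreases were *Ppox* (-0.62), *Blvrb* (-0.47), the ferritin heavy chain *Fth1*, from 1157 ± 149 to 607 ± 19.4 FPKM, *Bach1*, a heme-sensing repressor, from 9.24 ± 3.39 to 2.12 ± 0.241 FPKM, and *Slc40a1*, which was listed at 0 in every 24 h library. The list held 6 higher and 4 lower without replicate 2 at both times. Of 25 redox genes, 17 were higher and 2 lower (median 1.05). *Txn1*, thioredoxin, stood at 41.2, 41.9 and 44.4 FPKM at 0 h and 275, 296 and 277 FPKM at 24 h (log2 difference 2.71 ± 0.0557 SE, adjusted p = 4.97e-06), *Prdx1* rose 6.35-fold and *Txnrd1* 4.18-fold, and *Cat*, catalase, and *Mgst1* fell (-0.85 and -0.91). *Blvrb* did not pass without 0 h replicate 2, or without 24 h replicate 2 or 3, or without replicate 2 at both times, with adjusted p from 0.062 to 0.174. *Mgst1* (adjusted p = 0.108) did not pass without replicate 2 at both times. *Mgst1* (adjusted p = 0.0612) did not pass without replicate 3 at both times. *Mgst1* (adjusted p = 0.0655) did not pass with library weights.

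Of 19 genes of the BCL2 family, 9 were higher and 4 lower (median 0.27). *Bcl2l1*, which encodes the survival protein BCL-XL, stood at 2.84, 2.83 and 2.07 FPKM at 0 h and 22.2, 23.7 and 22.2 FPKM at 24 h (log2 difference 2.73 ± 0.115 SE, adjusted p = 1.03e-05). *Bcl2a1b*, a survival gene with near-identical copies that can share its reads, rose from 43.2 ± 13 to 183 ± 15.5 FPKM. *Bcl2* fell from 33.3 ± 2.12 to 24.6 ± 0.215 FPKM. The other decreases were the death genes *Bcl2l11* (BIM), *Bmf* and *Pmaip1* (NOXA), at -1.56, -1.58 and -2.55, while *Bbc3* (PUMA) rose by 1.37. *Mcl1* was at 306, 219.8 and 156 FPKM at 0 h and 194, 191 and 191 FPKM at 24 h and did not pass. Of the 8 GIMAP genes, GTPases of lymphocyte survival, 1 was higher and 2 were lower (median 0.12). *Gimap4* rose from 137 ± 50.1 to 259.5 ± 17.6 FPKM, and *Gimap6* and *Gimap8* fell (-1.08 and -0.50). At 0 h the list's median gene lay 0.486 above its group mean in replicate 1 and 0.482 below it in replicate 3, and without 0 h replicate 1 it held 4 higher and 2 lower, without replicate 1 at both times 3 and 1. *Gimap4* did not pass without 0 h replicate 2, or without 24 h replicate 1, or without replicate 2 or 3 at both times, with adjusted p from 0.0532 to 0.124. *Gimap8* did not pass without 0 h replicate 2, or without 24 h replicate 1, 2 or 3, or without replicate 1 or 2 at both times, with adjusted p from 0.0571 to 0.203. *Bcl2l11* (adjusted p = 0.098) and *Bbc3* (0.111) did not pass without replicate 2 at both times. *Bbc3* (adjusted p = 0.052) did not pass without replicate 1 at both times. *Mcl1* was lower without 0 h replicate 3 (log2 difference -0.43, adjusted p = 0.0486).

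Genes often used as references did not hold still. Of 13, 9 were higher and 2 lower (median 0.92). *Hprt* stood at 47.2, 47.6 and 47.1 FPKM at 0 h and 135, 142 and 132 FPKM at 24 h and *Gapdh* at 469.9, 500.2 and 431 FPKM at 0 h and 1709.8, 1833 and 1788 FPKM at 24 h. *Actb* rose 1.84-fold. *B2m* was among the decreases, and *Tbp* did not pass (0.44). *Actb* (adjusted p = 0.0812) did not pass without replicate 2 at both times. *Tbp* was higher without 0 h replicate 1 and without replicate 1 at both times (log2 difference 0.60 to 0.63, adjusted p from 0.00158 to 0.0117) and also under several of the other processing alternatives (log2 difference 0.44 to 0.51, adjusted p from 0.0178 to 0.0406).

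Markers of other cell types were low at both times. The summed level of 18 B cell markers was 17610 to 20690 FPKM at 0 h and 7452 to 8169 FPKM at 24 h. The 11 T cell markers tested summed to 8.35 to 16.79 FPKM at 0 h and 2.48 to 2.79 FPKM at 24 h, with 11 lower, and the 8 NK cell markers to 8.34 to 14.5 and 0.54 to 0.71 FPKM, with 7 lower. Markers of these and the following lists at or near 0 at 24 h included *Cd3e* (0.15, 0 and 0.11 FPKM) and *Ncr1* (0 in every 24 h library). They also included *Lyz2* (0.05, 0.05 and 0.1 FPKM), *Csf1r* (0.03, 0 and 0 FPKM) and *Siglech* (0, 0.02 and 0 FPKM), while other members of the same lists rose. The 15 myeloid markers were higher in sum at 24 h, from 19.6–27.9 to 40.8–45 FPKM, with 2 higher and 8 lower, and the increase lay in *Mpeg1*, a perforin-like gene that B cells also express (8.36, 9.63 and 13.8 FPKM at 0 h and 38.1, 36 and 38.4 FPKM at 24 h), and *Itgam* (0.79). The 7 dendritic cell markers went from 2.25–4.01 to 7.36–8.43 FPKM, with 2 higher, *Flt3* (6.77, 6.44 and 6.39 FPKM at 24 h) and *Batf3*, and 2 lower. The 8 erythroid and platelet markers went from 15.3–38.2 to 8.39–11.6 FPKM, with 5 lower and 1, *Hbb-bt*, a globin with near-identical copies, higher, and the 4 stromal and endothelial markers went from 78.4–79.5 to 35.6–36.6 FPKM, nearly all of it *Pecam1*. The part of these cells in the results above was not tested. Each of their sums was under 1% of that of the B cell markers in the same library. Without replicate 2 at both times, 4 T cell and 4 NK cell markers were lower, and without single 24 h libraries 6 or 7 T cell markers. The erythroid and platelet list held 3 lower without 0 h replicate 2, with median-ratio scaling and with library weights. *Cd3e* did not pass without 0 h replicate 2, or without 24 h replicate 1, 2 or 3, or without replicate 2 or 3 at both times, with adjusted p from 0.0623 to 0.169. *Lyz2* did not pass without 24 h replicate 1 or 2, or without replicate 3 at both times, with adjusted p from 0.0521 to 0.105. *Csf1r* (adjusted p = 0.0548) and *Batf3* (0.0724) did not pass without replicate 2 at both times. *Ncr1* was lower without 0 h replicate 1, without 0 h replicate 3 and without replicate 1 at both times (log2 difference -0.28 to -0.12, adjusted p from 0.00173 to 0.0478) and also under several of the other processing alternatives (log2 difference -1.34 to -0.22, adjusted p from 0.00364 to 0.0479).

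**Figure D3:**
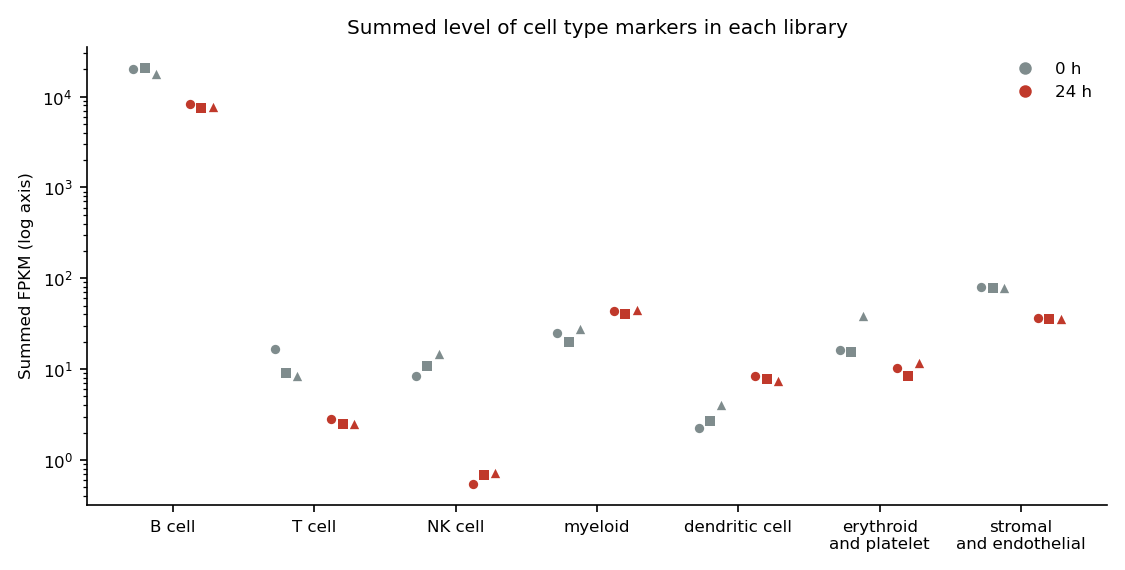
Summed FPKM of the marker lists of B cells and 6 other cell classes in each 0 h and 24 h library of the controls, on a log axis; circles, squares and triangles are replicates 1, 2 and 3. The B cell list lies at 17610 to 20690 FPKM at 0 h and 7452 to 8169 FPKM at 24 h, far above every other list at both times, and the T and NK cell lists fall.

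The same comparison in the B-CKO cells, made of other libraries, is given beside that of the controls. In B-CKO cells, 59.8% of 15551 genes tested were called, with 4279 (27.5%) higher and 5027 (32.3%) lower at 24 h, and with at least 2-fold 1810 (11.6%) and 1547 (9.95%). Among the 14900 genes tested in both genotypes, 3884 were higher in both, which is 93.7% of the genes higher in controls and 90.8% of those higher in B-CKO cells, and 4283 were lower in both (89.8% and 85.2%). Across these genes, which are not independent replicates, Pearson's r of the differences was 0.99. *Rrm2* changed by 4.55 in controls and 4.46 in B-CKO cells, *Fosb* by -8.23 and -8.13, *Ccl22* by 4.07 and 4.12, and *Cxcr4* by -5.16 and -5.28. *Zbtb24*, the deleted gene, changed by -1.31 in controls and -0.17 in B-CKO cells. A difference of the 24 h change between the genotypes passed for 0 of 16182 genes in limma (0% called, smallest adjusted p = 0.583), with 467 genes at an unadjusted p under 0.05, and leaving out replicate 1 or replicate 3 gave 1 gene. Among genes of at least 1 FPKM, the absolute difference between the genotypes' changes had a median of 0.0758 and reached 5.26, in *Rps27rt*, the near-identical copy of *Rps27* whose reads can be split between loci and which did not pass in controls (-2.71). A p that misses the threshold does not show that the changes are equal. *Rps27rt* was lower without 0 h replicate 1 and without replicate 1 at both times (log2 difference -4.07, adjusted p from 2.24e-05 to 0.000988) and also under several of the other processing alternatives (log2 difference -2.71, adjusted p from 0.0208 to 0.0442).

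**Figure D4:**
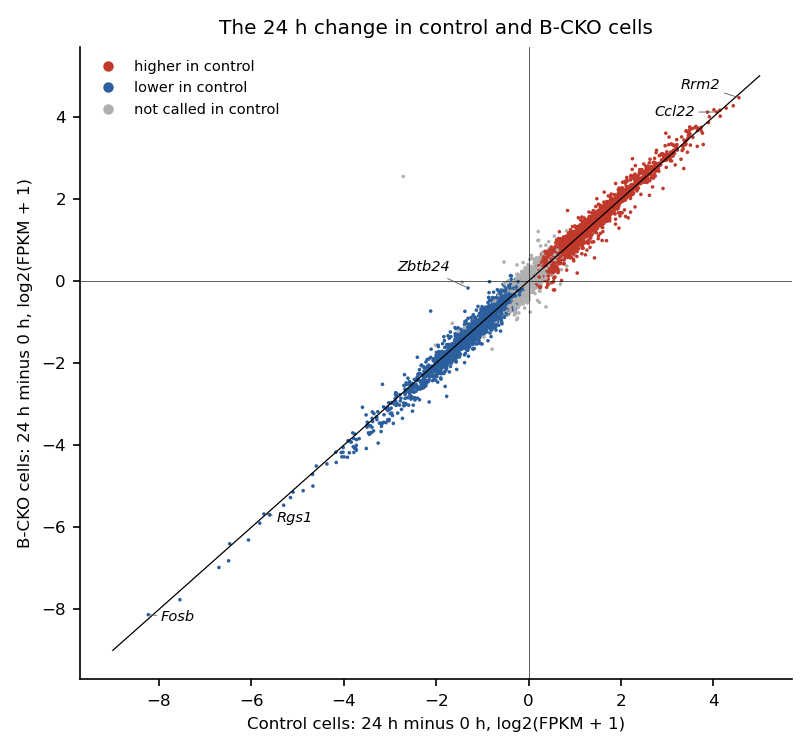
Difference between 24 h and 0 h (log2(FPKM + 1) scale) of each gene tested in both genotypes, in controls on the x axis and in B-CKO cells on the y axis; the diagonal marks equal change. The 14900 points lie along the diagonal (r = 0.99 across genes), and labelled genes include *Rrm2*, *Ccl22* and *Fosb*.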

How the data were processed

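Splenic B cells were sequenced in 3 control and 3 B-CKO libraries at each of 0, 24 and 48 h of LPS culture (18 libraries). The labels do not say whether a replicate number is the same mouse at each time, so libraries were treated as unpaired. The authors aligned the reads to mm10 and deposited FPKM values per gene in 1 table. Per the labels, BWA, Bowtie2, RSEM and DESeq2 were used, with no versions, and read counts were not used here. The low values of 30 of 80 genes near 0 (37.5%) were whole multiples of a step to within 0.1 of it, so relative depth is not given. Of 16545 gene IDs, 16512 matched RefSeq and supplied symbols. Locations are those of GRCm38.

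log2(FPKM + 1) values were compared in limma 3.58.1 (R 4.3.3; linear model, moderated variance with a trend on level), with Benjamini-Hochberg adjustment over all 15531 genes above 0 in any of the 6 libraries and a threshold of 0.05. A gene whose adjusted p was under 0.05 is called higher or lower, and "at least 2-fold" is a log2 difference of 1 or more in size. The genotypes' changes were compared by an interaction term. On simulated data with the spread of these libraries, the test found smaller changes less often than large ones, and the share of false calls was above the threshold. Tables and plots were made in Python 3.11.15 with pandas 2.3.3, numpy 2.4.6 and matplotlib 3.10.9. The p-values measure the spread between these libraries, each from 1 mouse. They take no account of the possibility that libraries of equal number at different times are of the same mouse.

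The members and gene lists were chosen with earlier results of these data known. Genes were named by rule: listed key genes (the largest changes among them, and those that did not pass), the 10 largest rises and 10 largest falls with a mean of at least 1 FPKM and no overlap, and the 5 highest levels per time. Further list members, and the genes of the promoter windows, were named after their values were seen. Alternatives were a pseudocount of 0.1, a minimum mean of 1 FPKM, rescaling to equal sums (TPM), median-ratio scaling, a replicate block, library weights per time, 1 fit of all 18 libraries, and leaving out libraries. Promoter windows came from a RefSeq table on GRCm38.p6 that held 12354 of the genes tested. Some genes and details are not reported here.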

Additional observations from a re-analysis of the deposited data

How the results depend on the processing

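With single libraries left out, the genes called higher numbered 3629 to 4516 and those called lower 3899 to 4977. With a replicate number left out at both times, they numbered 3013 (without replicate 2) to 4004 and 3378 (without replicate 2) to 4152. At a pseudocount of 0.1, 2509 genes were called at least 2-fold lower and 2154 at least 2-fold higher, against 1450 and 1725 at a pseudocount of 1, so that the larger number turned from increases to decreases. The difference of the change between the genotypes gave 0 to 1 genes with a replicate number left out, against 0 over all libraries. In B-CKO cells the same pseudocount gave 2685 genes at least 2-fold lower, against 1547, and with a minimum mean of 1 FPKM, where fewer genes were tested, 162 genes had an unadjusted p under 0.05 for the difference between genotypes, against 467. The data did not settle whether samples of the same number are paired. The correlation of their deviations from the group means was 0.0484, 0.0285 and 0.0478 for replicates 1, 2 and 3. For unlike numbers it was -0.0905 to 0.0576. With 3 libraries a time, such weak correlations cannot tell whether equal numbers are the same mouse. A replicate block gave 3958 higher and 4554 lower genes in controls and 4119 and 4792 in B-CKO cells. More members of a list were higher than lower, or the reverse, with a change of side for 4 lists: the LPS receptor list without 0 h replicate 1 or replicate 1 at both times, the cytokines without replicate 2 at both times, the amino acid transporters after rescaling to equal sums, and the GIMAP genes without 0 h replicate 1 or replicate 1 at both times. The causes of these shifts were not tested.

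Of the called genes named above, 253 of 314 kept their call in every alternative, 61 lost it in at least 1, and 0 reversed. Of the 43 named genes that did not pass, 27 passed in at least 1 alternative. FPKM values hold no read counts, so the counting error of low genes is unknown here, and 3 libraries a time limit the calls of genes that varied at 0 h.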
